A study of Marmota monax with 7 samples.

Results

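The genes described here are VWF, ENG and EDNRB, which are known from the lining of blood vessels, and FBN1 and COL1A2, which encode fibres of the extracellular matrix. A probe was taken where the array's annotation gave it exactly 1 of these 5 symbols. This rule found 5 of the 3011 genes that the annotation names and 1 probe for each, so none of the genes had a further probe with which to compare. The annotation lists the 5 probes under the human sequence accessions AA487787 (VWF), AA446108 (ENG), H28710 (EDNRB), AA418811 (FBN1) and AA490172 (COL1A2), and genes of all 5 names stand in the RefSeq annotation of the woodchuck genome. The sequences of the probes were not analysed here.

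The RNA was total RNA of normal liver of adult woodchucks (Marmota monax), hybridised to membrane arrays that carry human genes. The 7 arrays, all of 1 lot, received 0.1, 0.25, 0.5, 1, 2, 5 or 10 µg of it, with 1 array at each amount, and the study asked how the signal depends on the amount of RNA when probe and RNA come from different species. Nothing in the labels says whether the arrays held RNA of separate animals. Every SE and p below thus rests on the scatter of 7 arrays about a line and measures no replication. Each SE, and each p from limma, also borrows variance from other probes of the same arrays. No difference between any pair of amounts has a replicate check.

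Liver sinusoids are lined by a thin, perforated endothelium, and the space between it and the hepatocytes holds stellate cells and a sparse matrix. Von Willebrand factor (VWF) binds platelets and carries coagulation factor VIII, endoglin (ENG) is a co-receptor for ligands of the TGF-beta family, and the endothelin receptor B (EDNRB) is a G-protein-coupled receptor of endothelins. Fibrillin 1 (FBN1) builds the microfibrils of elastic tissue, and COL1A2 encodes the alpha 2 chain of type I collagen, the main fibre of scar tissue in the liver. In RNA of whole liver, few cells of a type and little RNA per cell cannot be told apart.

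The probe annotation limits what a gene name means here. Among 117 pairs of probes that share an accession, the Spearman correlation of their mean signal ranks was -0.0756, across pairs of the same 7 arrays, and of the 15 pairs with a probe among the brightest 10%, 0 had both there. The pairing of probe numbers with names in this annotation may therefore be off, and a name below may belong to another probe. Gene and list names are used only as the annotation gives them, all values by name hold under this limit, and the level of a probe was not set against that of another as an amount of transcript. Of 8 markers of endothelial cells 4 were on the array under 1 symbol. At 10 µg VWF and ENG lay at percentiles of 93.7 and 91.8 of the array, but PECAM1, a junction protein of nearly all endothelium, lay at 38.9 and KDR, a receptor of vascular endothelial growth factor, at 27.3. Of 6 markers of stellate cells and fibroblasts 2 were present, COL1A2 at 94.7 and the proteoglycan lumican (LUM) at 67.0. Of 15 hepatocyte markers 7 were present, with percentiles from 31.5 (TF) to 99.4 (APOB) and a median of 73.4. The median percentile was 80.2 for 5 macrophage markers, 76.8 for 4 lymphocyte markers and 23.9 for 3 markers of bile duct epithelium.

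As deposited, intensities were taken to include a background. The lower percentile of 1 over all probes of an array was 1329 at 0.1 µg, 1377 at 0.25 µg, 1586 at 0.5 µg, 1902 at 1 µg, 2129 at 2 µg, 3782 at 5 µg and 3550 at 10 µg, in the scanner's unit, which is not known. Below, background means this percentile, a stand-in, since no separate measure of background was used. It did not stay level, being 2.85 times its value of 0.1 µg at 5 µg and 2.67 times at 10 µg. Values after subtraction of this percentile are called subtracted below. On all 7 arrays the 5 probes stood above it, by the smallest margin for ENG at 0.1 µg (3234 against 1329). They kept a nearly constant place on the array. Their percentiles lay between 90.5 (COL1A2 at 5 µg) and 94.7 (COL1A2 at 10 µg, EDNRB at 1 µg), and by mean log2 signal all 5 were among the brightest 555 probes. All 5 also carry low probe numbers, among the first 2772, a part of the array that held 376 of those 555 and whose median at 10 µg was 25486 against 9242 for the other 2772.

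**Figure D1:**
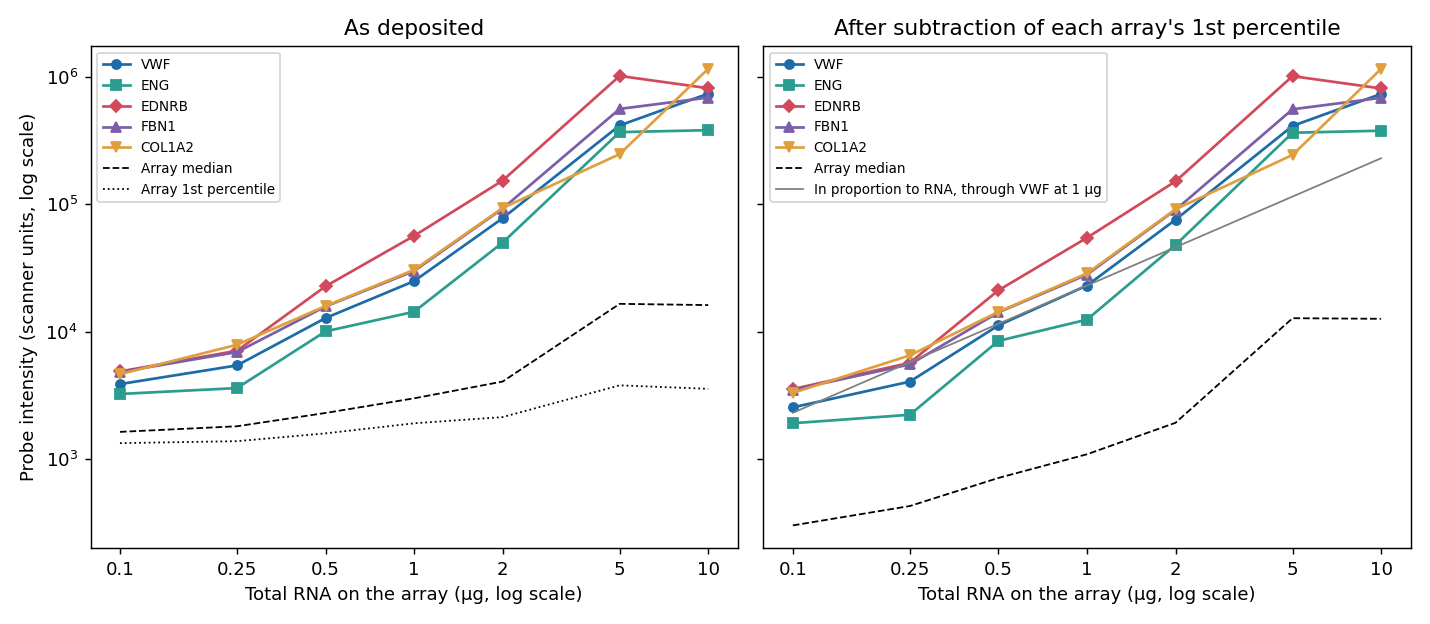
Probe intensity in scanner units (log scale) against µg of total RNA (log scale) for VWF, ENG, EDNRB, FBN1 and COL1A2, as deposited (left) and after subtraction of each array's lower percentile of 1 (right), 1 array at each amount. Dashed lines are array medians, the dotted line the subtracted percentile, and the grey line signal in proportion to RNA through VWF at 1 µg. All 5 lines lie above the array median throughout, EDNRB peaks at 5 µg, and COL1A2 lies lowest of the 5 at 5 µg and highest at 10 µg.

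The VWF probe read 3868 at 0.1 µg, 5421 at 0.25 µg, 12774 at 0.5 µg, 24910 at 1 µg, 77748 at 2 µg, 416817 at 5 µg and 740309 at 10 µg. Each array was above the one with less RNA, and the increase over the whole series was 191-fold for a 100-fold difference in RNA. After subtraction it was 290-fold, because the background made up 34.4% of the signal at 0.1 µg and 0.480% at 10 µg. The slope of log2 signal on log2 amount was 1.24 ± 0.09 as deposited (SE over 7 arrays, limma adjusted p = 2.54e-07) and 1.33 ± 0.12 subtracted (limma adjusted p = 6.06e-06), where 1 is signal in proportion to RNA.

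The ENG probe was the dimmest of the 5 on average and the one nearest to background. It read 3234 at 0.1 µg, 3598 at 0.25 µg, 10039 at 0.5 µg, 14318 at 1 µg, 50029 at 2 µg, 369000 at 5 µg and 382220 at 10 µg. The series thus went up in jumps, with near-level stretches from 0.1 to 0.25 µg (1.11-fold) and from 5 to 10 µg (1.04-fold). Background was 41.1% of the signal at 0.1 µg, the largest share among the 5 genes. The overall increase was 118-fold as deposited and 199-fold subtracted, with slopes of 1.19 ± 0.11 (limma adjusted p = 1.45e-06) and 1.31 ± 0.14 (limma adjusted p = 9.51e-06).

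The EDNRB probe read 4861 at 0.1 µg, 7067 at 0.25 µg, 22691 at 0.5 µg, 56505 at 1 µg, 153675 at 2 µg, 1020376 at 5 µg and 816650 at 10 µg. It was the only one of the 5 that read less at 10 µg than at 5 µg, by a ratio of 0.800, and so its highest array was that of 5 µg. At this step 43.5% of all probes and 34.6% of the brightest 555 read less, so the fall does not set EDNRB apart. Its slope of 1.28 ± 0.10 as deposited (limma adjusted p = 3.02e-07) was the steepest of the 5, as was its subtracted slope of 1.35 ± 0.13 (limma adjusted p = 6.42e-06). The differences among the 5 slopes are about the size of their SE.

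Among the matrix genes, the FBN1 probe read 4812 at 0.1 µg, 6902 at 0.25 µg, 15751 at 0.5 µg, 29935 at 1 µg, 92522 at 2 µg, 561899 at 5 µg and 689950 at 10 µg. It went up at every step, by 143-fold in all as deposited and by 197-fold subtracted. The slopes were 1.20 ± 0.10 (limma adjusted p = 4.06e-07) and 1.27 ± 0.12 (limma adjusted p = 6.75e-06).

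The COL1A2 probe read 4628 at 0.1 µg, 7881 at 0.25 µg, 15872 at 0.5 µg, 30539 at 1 µg, 93567 at 2 µg, 247939 at 5 µg and 1161392 at 10 µg. Up to 2 µg its values went much as those of FBN1, but its step from 2 to 5 µg was smaller and its step from 5 to 10 µg larger. It went up 251-fold as deposited and 351-fold subtracted, the widest range of the 5, while its slopes of 1.19 ± 0.09 (limma adjusted p = 2.98e-07) and 1.26 ± 0.12 (limma adjusted p = 6.30e-06) were among the lowest. Without the array of 10 µg its slope as deposited was 1.05 ± 0.11.

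All 5 probes thus rose with the amount of RNA, with and without subtraction. This was the rule on the array, since 99.9% of all probes rose as deposited and 92.9% rose after subtraction (limma, Benjamini-Hochberg 0.05), so the count of 5 of 5 does not set these genes apart. By exact two-sided permutation of the 7 arrays, p for the deposited and for the subtracted slope alike was 0.000198 for VWF, ENG and FBN1, which is the smallest the 5040 orders can give, 0.000397 for COL1A2 and 0.000595 for EDNRB. The limma values borrow variance from other probes of the same arrays and are no measure of replication.

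Subtracted signal per µg of RNA would be level if signal were in proportion. For VWF it was 25390 per µg at 0.1 µg, 16176 at 0.25 µg, 22376 at 0.5 µg, 23008 at 1 µg, 37809 at 2 µg, 82607 at 5 µg and 73676 at 10 µg. It lay lowest at 0.25 µg and highest at 5 µg. The array of 0.25 µg was the lowest for all 5 genes, and that of 5 µg the highest for all but COL1A2, which was highest at 10 µg. Bright probes in general went this way. Among the brightest 555 the median subtracted step was 2.00-fold from 0.1 to 0.25 µg, for 2.5-fold RNA. It was 6.35-fold from 2 to 5 µg, also for 2.5-fold RNA, and 1.13-fold from 5 to 10 µg, for 2-fold RNA. A low at 0.25 µg and a high at 5 µg were thus common among bright probes, but the low was not equally deep. The subtracted step from 0.1 to 0.25 µg was 1.97-fold for COL1A2, near that median. It was 1.61-fold for EDNRB and 1.59-fold for VWF and FBN1, under the lower quartile of 1.73. For ENG it was 1.17-fold, under percentile 5 of the 555 (1.34). These steps were not tested. The highest value per µg exceeded the lowest 4.45-fold for COL1A2, 5.05-fold for FBN1, 5.11-fold for VWF, 8.22-fold for ENG and 8.93-fold for EDNRB. Between 0.1 and 1 µg VWF, FBN1 and COL1A2 stayed within narrower bounds, as FBN1 went from 34830 at 0.1 µg to 22100 at 0.25 µg and 28033 at 1 µg, and COL1A2 from 32990 to 26016 and 28637. EDNRB had already reached 54603 per µg at 1 µg, from 22760 at 0.25 µg.

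**Figure D2:**
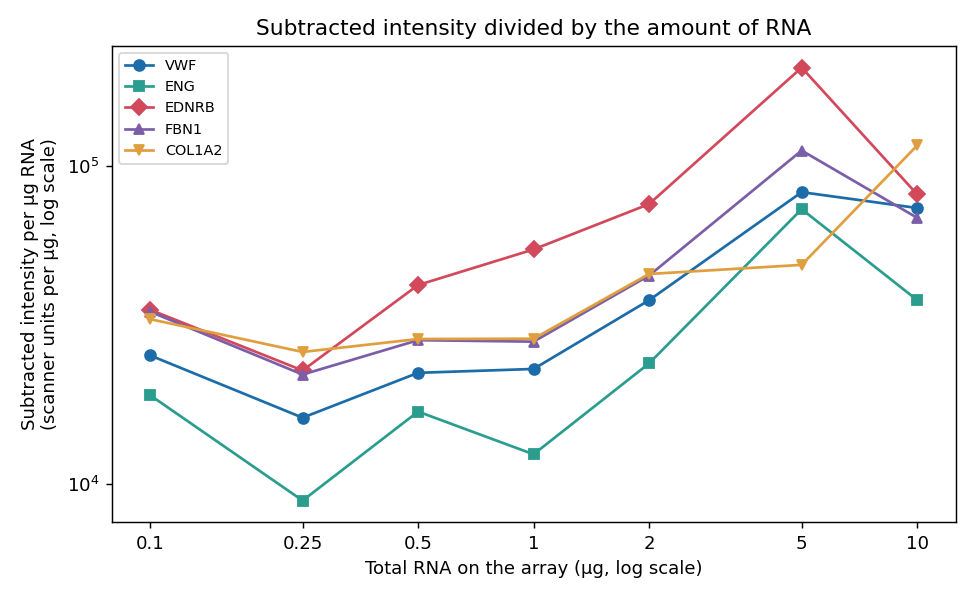
Subtracted intensity per µg of RNA (log scale) against µg of RNA (log scale) for the 5 genes, 1 array at each amount; signal in proportion to RNA would give level lines. All 5 lines are lowest at 0.25 µg, and 4 of them peak at 5 µg, while COL1A2 goes from 48831 at 5 µg to 115784 at 10 µg.

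All 5 slopes were estimated above 1, and whether the difference passed the test changed with the background and with single arrays. As deposited, EDNRB (limma adjusted p = 0.0209) and VWF (0.0354) had slopes above 1, and COL1A2 (0.0790), FBN1 (0.0744) and ENG (0.136) did not pass, where 6.89% of all probes did. After subtraction the estimates of all 5 were steeper, but their limma SE rose from between 0.09 and 0.11 to between 0.12 and 0.14. Since these SE borrow variance from other probes, their rise does not show that the scatter of the 5 probes themselves grew. With subtraction 0 of the 5 passed, with limma adjusted p from 0.0969 (VWF) to 0.166 (COL1A2), while 0.144% of all probes passed. At an unadjusted limma p below 0.05, VWF, EDNRB and ENG passed. The share of all probes at that p was not counted in this setting. It was 13% with subtracted values floored at 10 and 12.3% with values floored at 200, where 3 of the 5 passed each time. By exact two-sided permutation, unadjusted, the subtracted slope differed from 1 at p = 0.0159 for VWF, 0.0183 for COL1A2, 0.0232 for EDNRB, 0.0411 for FBN1 and 0.0637 for ENG. The count of 2 as deposited rested on single arrays. It was 5 without the array of 0.1 µg (9.70% of all probes) and 1 without that of 0.5 µg (6.13%) or that of 10 µg (5.92%). Without the array of 0.25 µg it was 0 (4.73%), and also 0 at an unadjusted limma p below 0.05 (5.56%). Over 0.1 to 2 µg alone the deposited slopes ran from 0.91 (ENG) to 1.20 (EDNRB), and EDNRB alone passed (limma adjusted p = 0.0471), where 3.59% of all probes did.

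The step from 2 to 5 µg, a 2.5-fold step in RNA, was the largest for 4 of the 5 genes. It was 7.38-fold for ENG, 6.64-fold for EDNRB, 6.07-fold for FBN1 and 5.36-fold for VWF, and these lie near the median of 6.27-fold among the brightest 555 probes. COL1A2 went up only 2.65-fold there, which placed it at rank 551 of the 555. From 5 to 10 µg the ratios were 0.800 for EDNRB, 1.04 for ENG, 1.23 for FBN1 and 1.78 for VWF, against a median of 1.13 among the 555, and COL1A2 went up 4.68-fold, rank 2 of the 555. A set of 6 of the 555 probes went up under 3-fold from 2 to 5 µg and over 3-fold from 5 to 10 µg. They were named COL1A2, GCH1, DYRK4, RING1, POFUT1 and PPFIBP2, a group defined after these values were seen.

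At the lower amounts ENG differed most from the other bright probes. Its 1.11-fold step from 0.1 to 0.25 µg was rank 539 of the 555, where the median was 1.74-fold, and its 1.43-fold step from 0.5 to 1 µg was rank 553, where the median was 2.44-fold. It then went up 3.49-fold from 1 to 2 µg, rank 58. EDNRB had a step of 3.21-fold from 0.25 to 0.5 µg, rank 30, where the other 4 genes had ratios between 2.01 (COL1A2) and 2.79 (ENG). These ranks describe single arrays and were not tested.

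**Figure D3:**
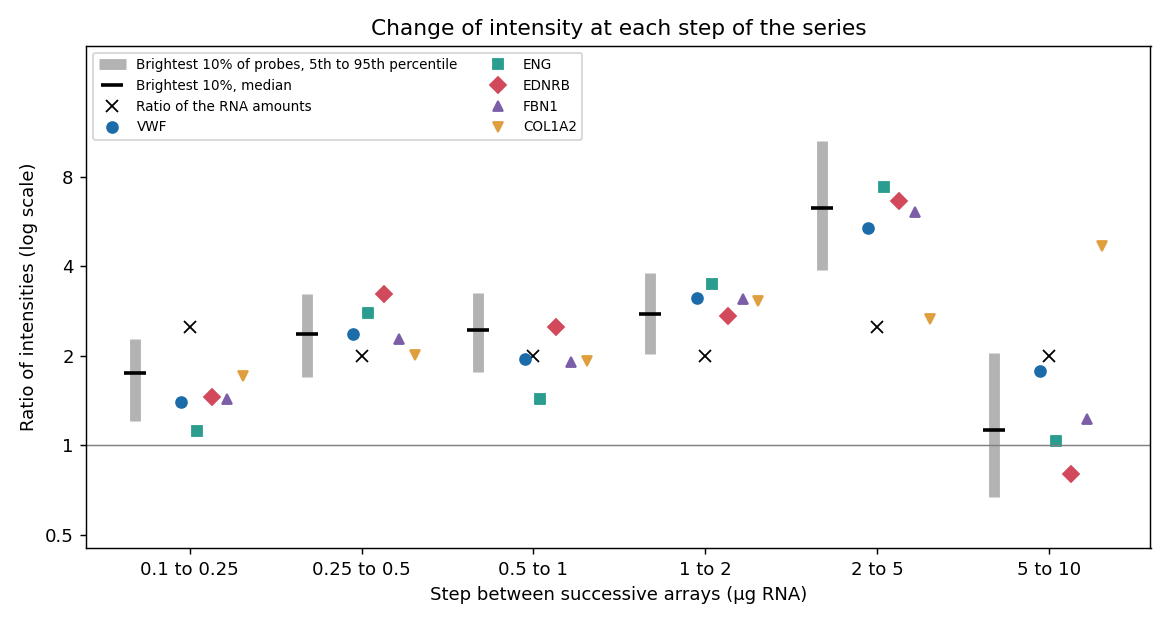
Ratio of intensities as deposited (log scale) between successive arrays for the 5 genes, with the ratio of RNA amounts (crosses) and, for the brightest 555 probes, the median (black bar) and the span from percentile 5 to percentile 95 (grey). At the step from 2 to 5 µg COL1A2 (2.65) lies below the grey span and the other 4 inside it, and from 5 to 10 µg COL1A2 (4.68) lies above the span.

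Set against one another by the root mean square difference of their log2 profiles, each centred on its own mean, FBN1 and VWF were the most alike of the 10 pairs (0.16 log2 units over 7 arrays), followed by FBN1 and ENG (0.17) and ENG and VWF (0.27). The measure was taken on deposited values. Scaling each array by 1 factor does not change it, but subtraction and division by the median absolute deviation do. COL1A2 and EDNRB were the least alike (0.77), as the ratio of their signals went from 0.243 at 5 µg to 1.42 at 10 µg. A pair of 1 matrix and 1 endothelial gene was thus closer than the pair of matrix genes, FBN1 and COL1A2 (0.53). No ratio within a pair changed steadily with the amount. The steepest slope of a log2 ratio was 0.10, for EDNRB over ENG (exact two-sided permutation p = 0.263), and the smallest of the 10 unadjusted exact permutation p was 0.239, for EDNRB over FBN1.

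Among 3345 other probes with 1 symbol, the profile nearest to FBN1 was that of CSPG4, a proteoglycan of pericytes (0.05 log2 units), followed by RGN, a calcium-binding protein of hepatocytes (0.07). RGN was also the nearest to ENG (0.13), with FBN1 next (0.17). The nearest to VWF were WNK1, a kinase, and CCNC, a cyclin (0.13 each), and the nearest to EDNRB were TNFRSF25, a death-domain receptor (0.09), and DCAF8 (0.10). The nearest to COL1A2 were PPFIBP2 and FAH, the last enzyme of tyrosine breakdown (0.13 and 0.14), and FAH went from 39476 at 2 µg to 129630 at 5 µg and on to 610023 at 10 µg. Against other named probes of the brightest 555 the median difference was 0.66 for COL1A2 and between 0.32 (EDNRB) and 0.42 (ENG) for the others. These neighbours were sought on deposited values. After subtraction their distances ran from 0.05 (FBN1 to CSPG4) to 0.35 (COL1A2 to PPFIBP2), and FAH (0.17) was then closer to COL1A2 than PPFIBP2. All these profiles share the same 7 arrays and the rise with RNA.

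Against the median signal of its own array, all 5 probes rose, where 33.9% of all probes did. The slopes were 0.72 ± 0.07 for EDNRB, 0.67 ± 0.05 for VWF, 0.64 ± 0.05 for FBN1, 0.63 ± 0.06 for ENG and 0.63 ± 0.08 for COL1A2, with limma adjusted p of at most 5.19e-05. These genes had been named for this very rise in earlier work on the same arrays, so the count supports nothing. The direction depended on the scaling: with the 75th percentile of each array in place of the median, which moved the median slope of all probes from 0.01 to -0.22, all 5 rose (0.40 to 0.50), where 15.4% of all probes rose and 57.9% fell. Divided by the median absolute deviation, 4 of the 5 fell and 0 rose by limma, where 7.02% of all probes fell and 0.0722% rose. At an unadjusted limma p below 0.05, 5 fell and 0 rose, where 12.9% of all probes fell and 3.79% rose. Slopes printed for this scaling are in units of each array's deviation, not in log2 units. With quantile normalization 0 of the 5 passed by limma, but neither did any other probe of the array, so that count says nothing here. At an unadjusted limma p below 0.05 it was also 0 of the 5, where 7.27% of all probes rose and 7.23% fell.

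After subtraction the slopes relative to the array median were smaller, at 0.45 ± 0.10 for EDNRB, 0.43 ± 0.09 for VWF, 0.41 ± 0.09 for ENG, 0.37 ± 0.08 for FBN1 and 0.36 ± 0.12 for COL1A2. All 5 passed, with limma adjusted p from 0.0119 (VWF) to 0.0474 (COL1A2), where 18.5% of all probes rose. They all missed the threshold without the array of 0.1 µg, at slopes from 0.35 to 0.46 (limma adjusted p from 0.0623 to 0.153), where 0% of all probes rose and 0.0180% fell (limma; 20.5% rose and 13.5% fell at an unadjusted p below 0.05). With centring on the 75th percentile 0 of the 5 passed by limma (adjusted p from 0.0594 to 0.306), where 4.8% of all probes rose. The slopes ran from 0.18 to 0.27. At an unadjusted limma p below 0.05, 4 of the 5 rose, where 12.2% of all probes did. Without both 0.1 and 0.25 µg 0 of the 5 passed by limma, as did 0% of all probes in either direction (2 of the 5 and 7.99% of all probes rose at an unadjusted p below 0.05). Without both 5 and 10 µg 1 of the 5 passed, where 11.1% of all probes rose.

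The 5 slopes were those of bright probes in general. In the brightest class of 555 the quartiles of the deposited slope were 1.21 and 1.33 and its median 1.28, which is the value of EDNRB, while VWF lay between the quartiles and FBN1, COL1A2 and ENG (1.20, 1.19 and 1.19) just under the lower. Subtracted, the quartiles were 1.31 and 1.37, and FBN1 and COL1A2 (1.27 and 1.26) lay under them. The distances from the class median were at most about the size of the SE of a slope. The ranking into classes uses the same arrays as the slopes.

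**Figure D4:**
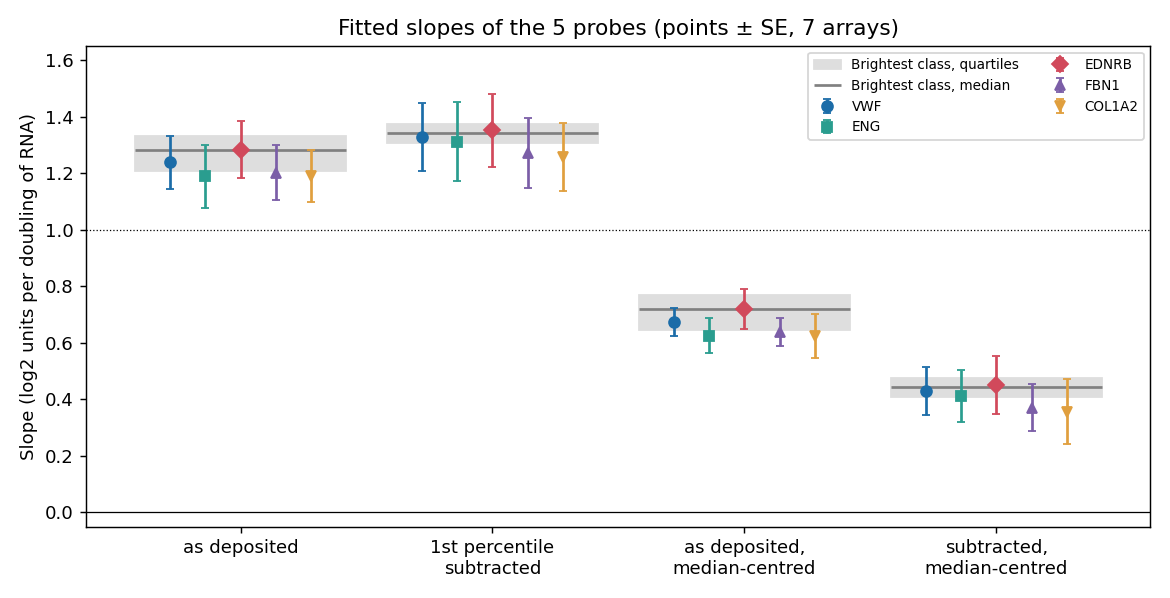
Fitted slope (log2 units per doubling of RNA) of each of the 5 probes, points with SE over 7 arrays, as deposited, after subtraction of the lower percentile of 1, and relative to the array median before and after that subtraction. Grey boxes are quartiles and grey lines medians of the brightest 555 probes, and the dotted line marks a slope of 1. Subtraction raises the unscaled slopes and lowers the median-centred ones of all 5 genes. It widens their SE, which are limma values that borrow variance from other probes.

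Of the other genes of endothelial cells, 23 of a list had a probe with 1 symbol. Relative to the array median 9 of these rose and 4 fell (39.1% and 17.4%), against 38.5% and 26.6% of all 3011 genes, and 10 did not pass. The median slope was 0.10 for the list and 0.05 for all genes. With the 75th percentile 3 rose and 10 fell, where 17.3% of all genes rose and 53.1% fell. Scaled on the median absolute deviation, 0 fell and 0 rose by limma, where 7.44% of all genes fell and 0.0996% rose. Without adjustment (limma p below 0.05) 2 fell and 1 rose, where 13.2% of all genes fell and 4.25% rose. With quantile normalization 0 did either by limma, as did 0% of all genes. Here 4 rose and 0 fell at an unadjusted limma p below 0.05, where 8.2% of all genes rose and 6.31% fell. Steepest were S1PR1, the sphingosine-1-phosphate receptor that keeps vessel walls tight (0.80 ± 0.05), PLAT, tissue plasminogen activator (0.69 ± 0.08), and TAL1, a transcription factor of blood and vessel precursors (0.59 ± 0.05), each with limma adjusted p of at most 3.92e-05; with the median absolute deviation S1PR1 (-0.55) and TAL1 (-0.34) did not pass (limma adjusted p = 0.147 and 0.288). At 10 µg these probes read 1078683, 243316 and 373505.

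At the other end lay SELE, the endothelial adhesion molecule E-selectin (-0.28 ± 0.06), the transcription factor ERG (-0.20 ± 0.05) and KDR (-0.20 ± 0.05), with limma adjusted p of at most 0.00742. These are falls against the median only. The KDR probe went from 1592 at 0.1 µg to 8200 at 10 µg, which is 2.31 times the background of that array, and SELE from 1429 to 4882, the latter being 1.38 times the background. PECAM1 did not pass (0.10 ± 0.12, limma adjusted p = 0.471). After subtraction, an alternative chosen with the data in view, S1PR1, PLAT, TAL1, FLI1 and F8 rose and KDR fell, so 5 rose and 1 fell, against 20.9% and 7.01% of all genes; FLI1 and F8 are named for this count.

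Of the other genes of matrix, stellate cells and fibroblasts, 29 had a probe with 1 symbol, of which 16 rose and 6 fell against the array median (55.2% and 20.7%, against 38.5% and 26.6% of all genes) and 7 did not pass. The median slope of this list was 0.17 and that of all genes 0.05. With the 75th percentile 5 rose and 9 fell, so that falls outnumbered rises, as they did over all genes (17.3% rose and 53.1% fell). Scaled on the median absolute deviation, 1 fell and 0 rose by limma, where 7.44% of all genes fell and 0.0996% rose. Without adjustment (limma p below 0.05) 3 fell and 2 rose, where 13.2% of all genes fell and 4.25% rose. With quantile normalization 0 did either by limma, as did 0% of all genes. Here 7 rose and 2 fell at an unadjusted limma p below 0.05, where 8.2% of all genes rose and 6.31% fell. Steepest were FBLN2, a fibulin of basement membranes and elastic fibres (0.79 ± 0.06), COL15A1, a basement membrane collagen (0.59 ± 0.05), and VIM, the intermediate filament of mesenchymal cells (0.55 ± 0.05), all with limma adjusted p of at most 2.94e-06, of which with the median absolute deviation FBLN2 fell (-1.37, limma adjusted p = 0.000623) and COL15A1 (-0.16) and VIM (-0.050) did not pass. FBLN2 went from 7632 at 0.1 µg to 1973662 at 5 µg but 1844805 at 10 µg. Like EDNRB and 34.6% of the brightest 555 probes, it read less at 10 than at 5 µg.

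The lowest slopes of the matrix list were those of RGS5, a regulator of G-protein signalling known from pericytes (-0.23 ± 0.06), ELN, elastin (-0.22 ± 0.05), and POSTN, periostin (-0.20 ± 0.05), with limma adjusted p of at most 0.00566. At 10 µg they read 4954, 6350 and 7195, between 1.40 and 2.03 times the background. Of the other collagens measured, COL6A3 rose (0.14 ± 0.05, limma adjusted p = 0.0213), and COL14A1 (0.13 ± 0.09) and COL6A2 (0.01 ± 0.04) did not pass. FBN2, the relative of FBN1, had a slope of 0.23 ± 0.05 (limma adjusted p = 0.00267). After subtraction 8 genes of the list rose (27.6%, against 20.9% of all genes) and 2 fell (6.90%, against 7.01%), ELN and BGN, the latter named for this count. In both lists the probes of the steepest slopes were bright and those of the lowest dim, and the part of brightness in these counts was not tested: of the brightest 10% of probes at 10 µg the endothelial list held 3 genes, the matrix list 2 and all 3011 genes 333.

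**Figure D5:**
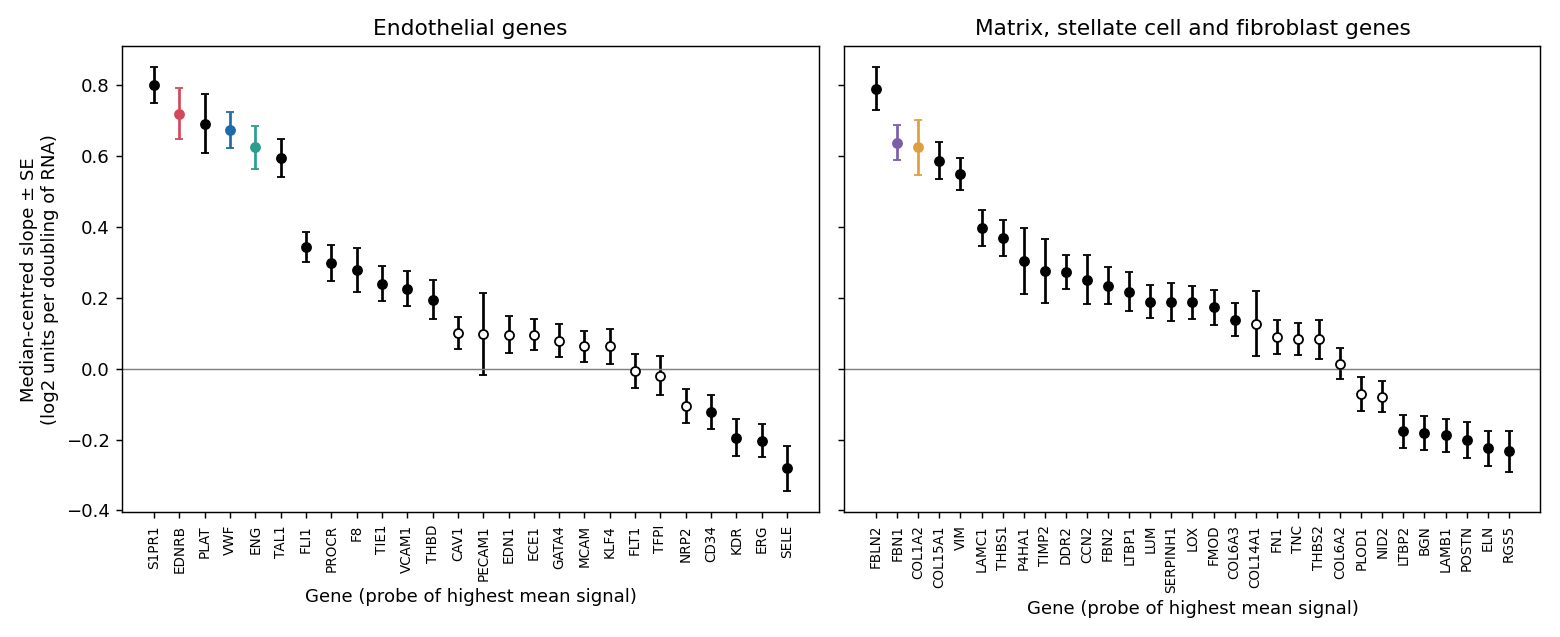
Slope relative to the array median (log2 units per doubling of RNA, ± SE over 7 arrays) for each measured gene of the endothelial (left) and the matrix list (right), in order of slope; filled points passed limma at an adjusted p of 0.05 and coloured points are VWF, ENG, EDNRB, FBN1 and COL1A2. EDNRB, VWF and ENG lie among the 5 highest of their list and FBN1 and COL1A2 among the 3 highest of theirs. With the median absolute deviation as scale 4 of these 5 fell and ENG (-0.42, in units of that deviation) did not pass.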

How the data were processed

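The authors deposited 1 intensity per probe and array, on a linear scale. Scanning, background correction and scaling by the authors are not given in the sources used here. Array medians ran from 1629 to 16520, so they had not been made equal, but other scaling cannot be told from them. Probes were named from the platform annotation (3346 with 1 symbol, 95 with several, 2103 with none).

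Each array's lower percentile of 1 was subtracted, values were floored at 50 and log2 transformed; none of the 5 probes reached the floor. Limma 3.58.1 in R 4.3.3 fitted log2 signal on log2 amount over 7 arrays for every probe, against slopes of 0 and 1, with Benjamini-Hochberg adjustment at 0.05. Exact permutations used Python 3.11.15 with numpy 2.4.6. Fits were checked on simulated data. Lists took each gene's probe of highest mean signal. Named were the 5 genes, the 3 steepest and 3 lowest slopes of each list, and the 2 nearest profiles per gene. The 5 genes and the lists were chosen with earlier results of these data known. A comparison of probes of 1 gene was not possible.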

Additional observations from a re-analysis of the deposited data

How the results depend on the processing

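The 5 slopes on amount, as deposited and subtracted, passed and rose under every alternative run. Leaving out 1 array at a time gave slopes from 1.05 to 1.39 as deposited and from 1.13 to 1.48 subtracted. The count of deposited slopes above 1 (2) ranged from 0 to 5 when 1 array was left out, and was 1 without both 5 and 10 µg (3.59% of all probes) and 1 with an intensity trend (6.33%). Without both 5 and 10 µg the deposited slopes of ENG (0.91), COL1A2 (0.99) and FBN1 (0.99) were estimated below 1 and did not pass the test against 1. Of the subtracted slopes above 1 (0), 1 passed with the lowest intensity as background (6.40% of all probes) and 2 with an intensity trend (9.40%). The subtracted, median-centred count of 5 ranged from 0 to 5 when 1 array was left out, and was 0 with the 75th percentile (4.8% of all probes), 0 without both 0.1 and 0.25 µg (0%) and 1 without both 5 and 10 µg (11.1%).

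With the median absolute deviation 0 of the 5 median-centred slopes rose and 4 fell (COL1A2 -0.94, EDNRB -0.92, FBN1 -0.92, VWF -0.66; ENG -0.42 did not pass). FBLN2 (-1.37) fell too, and S1PR1 (-0.55), PLAT (0.11), TAL1 (-0.34), COL15A1 (-0.16) and VIM (-0.050) did not pass. With quantile normalization 0% of all probes passed by limma, and the slopes of COL1A2 (-0.071), FBN1 (-0.065), TAL1 (-0.027), ENG (-0.017) and VWF (-0.0029) were within 2 SE of 0. Separate centring of low and high probe numbers, chosen after the data were seen, kept 5 rises. The share of all probes that rose was not counted for this centring, and was 33.9% with 1 median per array. For the endothelial list (9 up, 4 down) the 75th percentile gave 3 and 10. The median absolute deviation and quantile normalization each gave 0 and 0. Subtraction gave 5 and 1, and leaving out 5 and 10 µg gave 0 down, where 4.05% of all genes fell. For the matrix list (16 up, 6 down) these alternatives, in the same order, gave 5 and 9, 0 and 1, 0 and 0, 8 and 2, and 1 down. Leaving out 0.1 and 0.25 µg gave 8 and 3, where 26.7% of all genes rose and 18% fell. The causes were not tested. At 0.1 µg the array median was 1.23 times the lower percentile of 1. The 5 probes read between 2.43 (ENG) and 3.66 (EDNRB) times that percentile.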
